A study of Bos taurus with 12 samples.

Results

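Receptors for steroid hormones and oxytocin, a receptor coactivator and enzymes that set local steroid levels were followed in bovine endometrium, the lining of the uterus. The set holds 9 of the 9155 genes with a single symbol in the array annotation and was chosen by name: the receptors NR3C1, PGR, ESR1, ESR2, PGRMC1 and OXTR, the coactivator NCOA1, and the enzymes HSD11B1 and HSD17B4. These genes carry 15 probe sets. A gene counted as measured when a probe set of it exceeded a log2 intensity of 4 on 3 or more of the 12 arrays. This held for 7 genes and 11 probe sets. The tissue came from Simmental heifers biopsied at day 7 or day 14 of the cycle before an embryo was transferred to them, and the arrays were grouped by day and by the later outcome. There were 3 arrays each of CDd14 and NPd14 at day 14, and of CDd7 and NPd7 at day 7. CD heifers later delivered a calf, NP heifers returned to heat without a pregnancy, and no drug or hormone treatment is named in the labels. Every array carries a pool of RNA whose number of heifers the labels do not give, so the p-values measure the spread between pools.

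Ovarian progesterone and oestradiol act in the uterus mainly through nuclear receptors, which bind DNA and recruit coactivators such as NCOA1. In cattle, rising endometrial oxytocin receptor late in the cycle lets oxytocin drive the pulses of prostaglandin that end the life of the corpus luteum. Cortisol acts through the glucocorticoid receptor NR3C1, and the enzyme HSD11B1 regenerates cortisol from inactive cortisone inside cells, while HSD11B2 does the reverse.

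Array medians of the normalized values lay between 4.89 and 5.06 on the log2 scale. Epithelial markers were bright, with EPCAM, an epithelial adhesion molecule, at a mean of 15.36, and 9 of 12 listed epithelial markers were measured. Of 10 smooth muscle markers, 1 was measured (MYLK), and the probe sets of DES, MYH11, CNN1, TAGLN and ACTA2, which mark muscle, stayed under the filter. Of 8 endothelial markers 1 was measured, CLDN5. The gap between 3' and 5' probe sets of GAPDH, cyclophilin and EF1A was 1.97 ± 0.11 in CDd14, 2.32 ± 0.17 in NPd14, 1.65 ± 0.20 in CDd7 and 1.94 ± 0.19 in NPd7 (log2, SD, n = 3). For the added transcripts DAP, LYS and PHE it was 5.13 ± 0.12 in CDd14, 5.38 ± 0.14 in NPd14, 4.74 ± 0.07 in CDd7 and 5.06 ± 0.15 in NPd7. Both mean gaps were thus wider at the later day within each outcome and narrower in CD than in NP within each day. Their part in the results was not tested.

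PGR, the nuclear progesterone receptor, and ESR1, oestrogen receptor alpha, were not measured. The PGR probe set lay between 2.11 and 2.16 on all 12 arrays and that of ESR1 between 1.59 and 1.63 (log2). Values this low carry no order between groups and say nothing of the transcripts. A second probe set each of NR3C1 (2.87 to 3.46) and PGRMC1 (1.94 to 2.26) stayed under the filter on all 12 arrays, although the other probe set of each gene was bright. For PGR and ESR1 the annotation used here gives 1 probe set each, so no second reading was at hand.

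**Figure D1:**
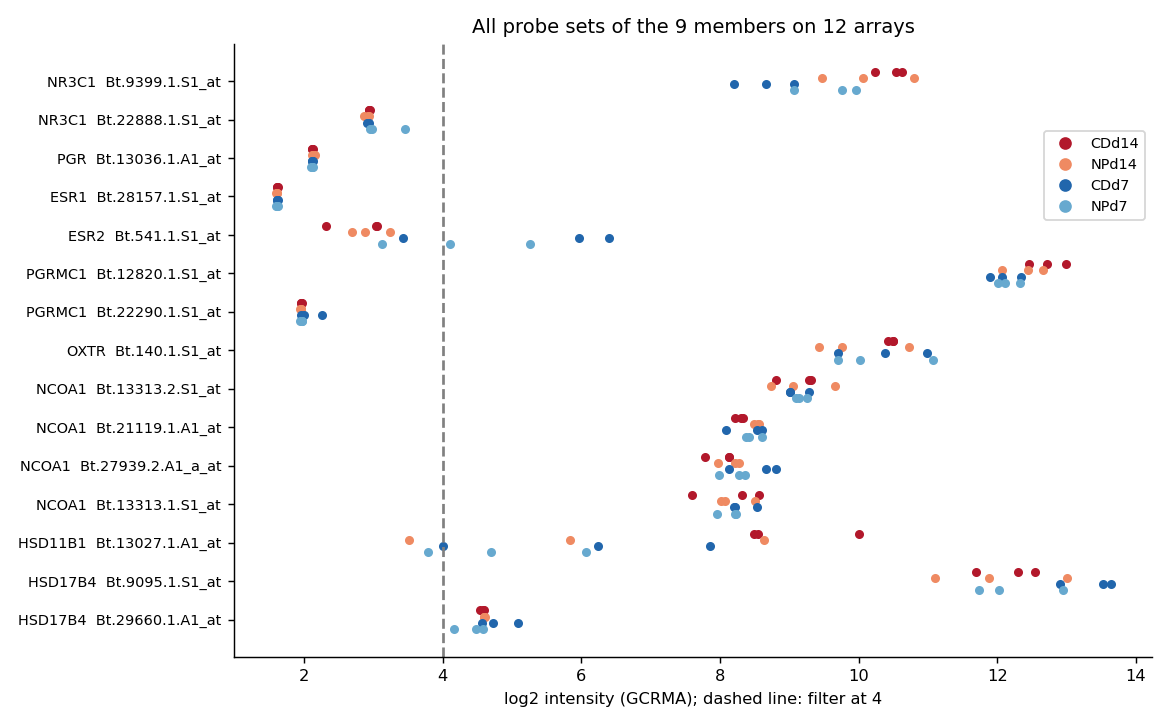
Log2 intensity (GCRMA) of all 15 probe sets of the 9 genes, 1 row per probe set and 1 point per array, coloured by group, with the filter at 4 as a dashed line. PGR, ESR1 and 1 probe set each of NR3C1 and PGRMC1 sit left of the line on all 12 arrays, while ESR2 and HSD11B1 straddle it.

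The changes that passed the test were between days in heifers that later delivered a calf. The glucocorticoid receptor NR3C1 and the membrane-associated PGRMC1 rose and ESR2, oestrogen receptor beta, fell in CDd14 relative to CDd7, so 3 of the 7 measured genes passed an adjusted p of 0.05 in limma, while OXTR, NCOA1, HSD11B1 and HSD17B4 did not. Over all 6781 measured genes, 24.1% passed in the same comparison, 9.87% higher and 14.2% lower. The CDd14 and CDd7 pools did not overlap for 5 of the 7 genes, against 44.9% of all genes. ESR2 is in both counts, but it entered the test through its day 7 arrays alone. Its part in these counts supports nothing by itself. Between CD and NP 0 of the 7 passed on either day. At day 14, 1 of the 7 had an unadjusted p under 0.05 by limma, against 430 of all 6781 genes. There 0 of the 7 did not overlap, against 10.6% of all genes. Of all genes 0.0147% passed, each of them lower in CD (0% higher). At day 7, 2 of the 7 had an unadjusted p under 0.05 by limma, against 2062 of all 6781 genes. There 1 of the 7 did not overlap, against 35.3% of all genes. Of all genes 3.48% passed, 1.46% higher and 2.02% lower in CD. Between days in NP 0 of the 7 passed by limma, 0 had an unadjusted p under 0.05 and 0 did not overlap. Over all genes 0.133% passed there, 0.059% higher and 0.0737% lower at day 14, and 22.6% did not overlap. An unadjusted p under 0.05 was reached there by 1116 of all 6781 genes. Whether the change between days differed by outcome was tested as an interaction. It was called by limma for 0 of the 7 genes and for 0% of all genes. An unadjusted p under 0.05 was reached by 1 of the 7, against 980 of all 6781 genes.

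**Figure D2:**
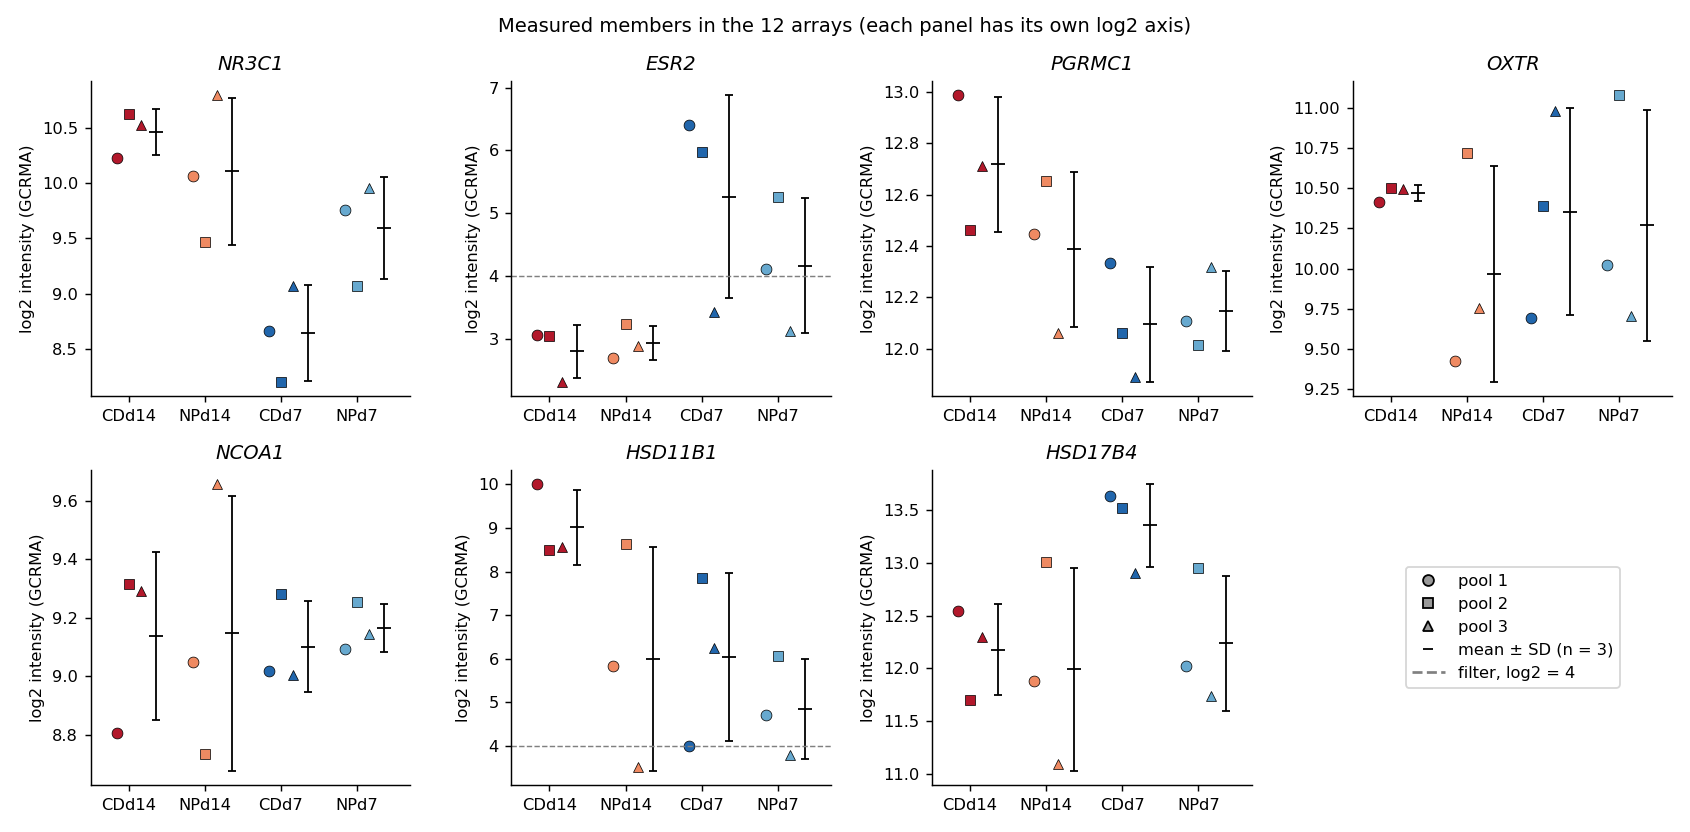
Log2 intensity (GCRMA) of the 7 measured genes in the 12 arrays, each panel on its own axis, with pools 1 to 3 as circle, square and triangle and the group mean ± SD (n = 3) as a bar. NR3C1 is high in all CDd14 pools and low in all CDd7 pools, ESR2 is under the filter of 4 in every day 14 pool, and HSD11B1 spreads widest, from 3.52 to 10.01.

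NR3C1 is the receptor through which cortisol controls transcription. Its levels were 10.23, 10.63 and 10.53 in CDd14 pools 1 to 3, against 8.66, 8.20 and 9.06 in CDd7 (log2). Every CDd14 pool was above every CDd7 pool, a rise of 1.82 ± 0.35 on the log2 scale (SE, 3.54-fold, limma adjusted p = 0.00755). The rise passed in 12 of 12 fits that left out 1 pool, with adjusted p from 0.00435 to 0.0347.

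In NP the pools of the 2 days overlapped: NR3C1 was at 10.07, 9.46 and 10.80 in NPd14 and at 9.76, 9.07 and 9.96 in NPd7. The log2 difference was 0.51 ± 0.35 (SE, 95% interval -0.27 to 1.298, limma adjusted p = 0.498). Same-numbered NP pools, treated here as paired without a label that pairs them, differed by 0.31, 0.39 and 0.84 in pools 1 to 3. All were higher at day 14. Of all measured genes, 49.3% kept 1 direction in all 3 pools. With the pool number as a replicate block over the 6 NP arrays the difference stayed 0.51 and did not pass (limma adjusted p = 0.192). The day effect was larger in CD than in NP by 1.31 ± 0.50 (log2, SE), which did not pass (limma adjusted p = 0.311), except with array weights, where it was 1.56 (adjusted p = 0.0479). Pool 2 was the lowest and pool 3 the highest in NP on both days, an order that the leukocyte markers below shared.

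Set by outcome, NR3C1 was lower in CDd7 than in NPd7 by 0.95 ± 0.35 (log2, SE, limma adjusted p = 0.112). The groups did not overlap, but only just, with the highest CDd7 pool at 9.06 and the lowest NPd7 pool at 9.07. The difference passed in the fit with the pool number as a replicate block (adjusted p = 0.0479) and with array weights (-1.12, adjusted p = 0.0187). That block joins CD and NP pools by number, which no label links, so its pass adds no support. At day 14 the difference was 0.36 ± 0.35 (limma adjusted p = 0.893). In the order of group means NR3C1 ran CDd14, NPd14, NPd7 and CDd7 from high to low, and of the neighbours NPd14 overlapped with both CDd14 and NPd7.

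The biopsies hold several cell types, and in bulk RNA fewer cells of a type and less RNA per cell cannot be told apart. Leukocyte markers, of which 8 of 10 were measured, stood at 0.15 ± 0.51 in CDd14, 0.39 ± 0.57 in NPd14, -0.81 ± 0.72 in CDd7 and 0.27 ± 0.57 in NPd7 (mean deviation from all arrays, log2, SD, n = 3). Their summed level was 11.19 to 12.04 in CDd14, 11.00 to 12.04 in NPd14, 9.84 to 11.28 in CDd7 and 10.97 to 12.10 in NPd7 (log2). CDd7 was thus the lowest group for NR3C1 and for these markers alike. CDd14, the highest group for NR3C1, was not the highest for the leukocyte markers, at 0.15 against 0.39 in NPd14 and 0.27 in NPd7. Within a group the pools also stood in the same order for both, in 4 of 4 groups, with the leukocyte markers at -0.37, 0.65 and 0.19 in CDd14 pools 1 to 3, 0.69, -0.27 and 0.75 in NPd14, -0.81, -1.54 and -0.09 in CDd7 and 0.24, -0.29 and 0.85 in NPd7. Stromal fibroblast markers, of which 10 of 14 were measured, stood at -0.53 ± 0.43 in CDd14, 0.09 ± 0.91 in NPd14, -0.99 ± 0.56 in CDd7 and 1.42 ± 0.55 in NPd7, and their summed level was 12.01 to 12.96, 12.52 to 13.13, 11.56 to 12.53 and 13.17 to 14.47 in the same groups. The stromal markers were highest in NPd7, where NR3C1 was not. Their pools 1 to 3 stood in the order of NR3C1 in CDd7 (-0.91, -1.58 and -0.47) and in NPd7 (1.23, 0.998 and 2.04). They did not in CDd14 (-0.96, -0.52 and -0.10) or NPd14 (-0.63, 1.11 and -0.21). How many of all genes share the pool order of NR3C1 was not counted. Among the listed markers of these cells, COL1A1, PDGFRB, POSTN and CD68 had probe sets under the filter only. The 9 measured epithelial markers moved within a narrower range, at 0.27 ± 0.16 in CDd14, 0.11 ± 0.19 in NPd14, -0.24 ± 0.02 in CDd7 and -0.15 ± 0.07 in NPd7, so CDd14 was the highest and CDd7 the lowest group by mean, as for NR3C1. Their summed level was 16.06 to 16.11 in CDd14, 15.92 to 16.08 in NPd14, 15.80 to 15.88 in CDd7 and 15.89 to 15.995 in NPd7. The part of these cell types in the NR3C1 result was not tested.

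**Figure D3:**
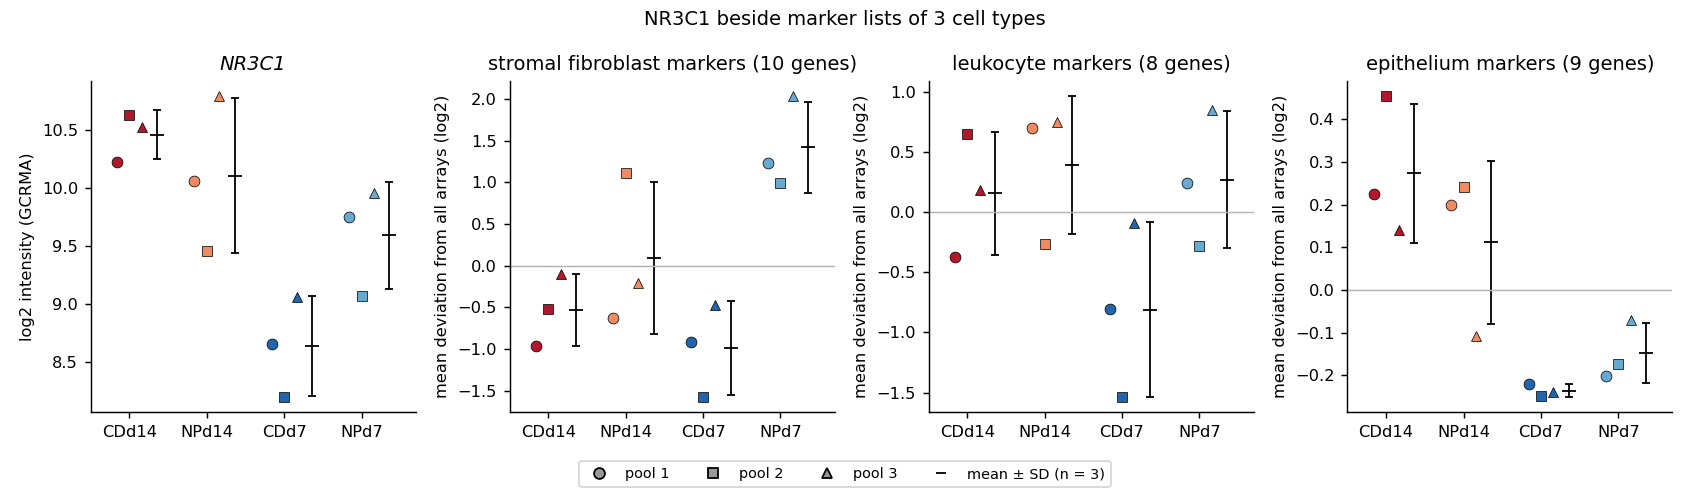
NR3C1 (left, log2 intensity) beside the mean deviation of 10 stromal, 8 leukocyte and 9 epithelial markers from their mean over all arrays (log2), by pool, with group mean ± SD (n = 3). By mean CDd7 is the lowest group in all 4 panels, CDd14 is the highest for NR3C1 and epithelial markers, and NPd7 is the highest for stromal markers only.

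ESR2, the other nuclear oestrogen receptor, was dim. It was at 3.06, 3.04 and 2.31 in CDd14 pools 1 to 3, against 6.405, 5.97 and 3.42 in CDd7, and at 2.70, 3.24 and 2.88 in NPd14, against 4.11, 5.26 and 3.13 in NPd7 (log2). Only 4 of 12 arrays, all of day 7, were above the filter, and within each day 7 group pool 3 was under it. ESR2 therefore entered the test through the day at which it was high, and its call between days supports nothing by itself.

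With that limit, ESR2 fell by 2.46 ± 0.73 on the log2 scale in CDd14 relative to CDd7 (SE, limma adjusted p = 0.0355), to levels at which its size depends on how dim probe sets are treated. In NP the difference was -1.23 ± 0.73 (limma adjusted p = 0.432) and the pools overlapped. Same-numbered NP pools differed by -1.41, -2.03 and -0.25, and with the replicate block over NP the change did not pass (limma adjusted p = 0.190). The call in CD passed in 5 of 12 fits that left out 1 pool. It was lost without CDd7 pool 1 (adjusted p = 0.109) or pool 2 (0.128), without CDd14 pool 1 (0.0660), pool 2 (0.0698) or pool 3 (0.108), and without NPd7 pool 1 (0.0520) or NPd14 pool 1 (0.0508). The endothelial marker CLDN5, also a tight junction protein of epithelia, had a like course, with 1.66 to 2.05 in CDd14, 2.04 to 3.29 in NPd14, 5.78 to 7.21 in CDd7 and 3.21 to 4.75 in NPd7 (log2), while PECAM1, VWF, CDH5 and the other listed endothelial markers were under the filter. CLDN5 was under the filter in every day 14 pool, so it too entered the test through its day 7 arrays alone. Its likeness to ESR2 therefore supports nothing by itself. The part of CLDN5 in the ESR2 result was not tested. Between outcomes ESR2 differed by -0.13 ± 0.73 at day 14 and by 1.10 ± 0.73 at day 7 (limma adjusted p = 0.989 and 0.327).

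PGRMC1 is a heme-binding membrane protein that takes part in non-genomic progesterone responses. It was bright on all arrays, with 12.99, 12.46 and 12.71 in CDd14 pools 1 to 3, against 12.33, 12.06 and 11.89 in CDd7 (log2). The CDd14 pools were all above the CDd7 pools by a small step, 0.62 ± 0.19 on the log2 scale (SE, 1.54-fold, limma adjusted p = 0.0422). In NP it was at 12.45, 12.65 and 12.06 in NPd14, against 12.11, 12.01 and 12.32 in NPd7, and these groups overlapped (0.24 ± 0.19, limma adjusted p = 0.570).

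The PGRMC1 call passed in 4 of 12 fits that left out 1 pool. It was lost without CDd14 pool 1 (adjusted p = 0.124) or pool 3 (0.0991), CDd7 pool 2 (0.118) or pool 3 (0.106), NPd14 pool 1 (0.0602) and NPd7 pool 1 (0.0601), pool 2 (0.0509) or pool 3 (0.0518). Both calls were also lost when every probe set was tested (adjusted p = 0.0725 for PGRMC1 and 0.0821 for ESR2) and when only the 6 CD arrays were fitted (0.0671 for PGRMC1 and 0.0757 for ESR2). Between outcomes PGRMC1 differed by 0.33 ± 0.19 at day 14 (95% interval -0.10 to 0.76) and by -0.05 ± 0.19 at day 7 (-0.48 to 0.38).

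OXTR, the oxytocin receptor, was well above background on all 12 arrays. Its levels were 10.42, 10.50 and 10.49 in CDd14 pools 1 to 3, against 9.43, 10.72 and 9.75 in NPd14 (log2). The CDd14 pools lay close together, inside the range of NPd14. At day 7 they were 9.70, 10.39 and 10.98 in CDd7, against 10.02, 11.08 and 9.71 in NPd7, and these groups overlapped as well.

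No comparison of OXTR passed. The log2 difference between outcomes was 0.50 at day 14 (95% interval -0.46 to 1.47) and 0.08 at day 7 (-0.88 to 1.05), with limma adjusted p = 0.869 and 0.916. Between days it was 0.12 in CD (-0.85 to 1.08) and -0.30 in NP (-1.27 to 0.67), with limma adjusted p = 0.864 and 0.778. The SD between pools was 0.05 in CDd14, 0.67 in NPd14, 0.64 in CDd7 and 0.72 in NPd7, and with 3 pools a group this spread was not tested.

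NCOA1, a histone acetyltransferase that steroid receptors recruit, was read by 4 probe sets. The brightest was at 8.81, 9.32 and 9.29 in CDd14 pools 1 to 3 and at 9.05, 8.73 and 9.66 in NPd14, and at 9.02, 9.28 and 9.005 in CDd7 and 9.09, 9.25 and 9.14 in NPd7 (log2). Its group means lay between 9.10 and 9.16 and all comparisons of it overlapped, with log2 differences from -0.06 to 0.05.

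The other NCOA1 probe sets did not pass either, and the probe sets did not move alike. Between days in CD the log2 differences were -0.13, -0.52 and -0.15 for the other three, against 0.04 for the brightest. The lowest adjusted p of these was 0.0763, for a probe set at 7.78, 8.12 and 8.13 in CDd14 against 8.66, 8.81 and 8.13 in CDd7. For another probe set the outcome groups at day 14 did not overlap, with 8.30, 8.22 and 8.33 in CDd14 against 8.57, 8.49 and 8.55 in NPd14, a difference of -0.25 ± 0.14 (log2, SE, limma adjusted p = 0.758).

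HSD11B1, the reductase that regenerates cortisol, had the widest range of the set, 6.49 on the log2 scale. It was at 10.01, 8.49 and 8.55 in CDd14 pools 1 to 3, against 5.84, 8.63 and 3.52 in NPd14. All CDd14 pools were high, while NPd14 ran from under the filter to within the CDd14 range through its pool 2. The mean was 8.11-fold higher in CDd14 (log2 difference 3.02 ± 1.28, SE, 95% interval 0.18 to 5.86), which did not pass (limma adjusted p = 0.644).

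At day 7 HSD11B1 was at 4.01, 7.85 and 6.24 in CDd7, against 4.70, 6.07 and 3.79 in NPd7, and these groups overlapped (1.18 ± 1.28, limma adjusted p = 0.551). The CDd14 pools did not overlap with the CDd7 pools, and the difference of 2.98 ± 1.28 (log2, SE, 7.90-fold) did not pass (limma adjusted p = 0.112). It ran from 1.97, without CDd7 pool 1, to 3.89, without CDd7 pool 2, when 1 pool was left out. In NP the days overlapped, with a difference of 1.14 ± 1.28 (limma adjusted p = 0.704). The day effect differed between outcomes by 1.84 ± 1.81 (log2, SE, 95% interval -2.18 to 5.85, limma adjusted p = 0.634). When 1 pool was left out, the day 14 difference between outcomes ran from 1.78, without NPd14 pool 3, to 4.34, without NPd14 pool 2, and did not pass in any fit.

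HSD11B2, which inactivates cortisol, belongs to the list of steroid enzymes below and is named here after its values were seen. It was at 7.99, 7.44 and 8.54 in CDd14 pools 1 to 3, against 8.73, 7.16 and 9.23 in NPd14, and at 7.24, 7.11 and 7.43 in CDd7, against 8.11, 7.79 and 8.54 in NPd7 (log2). The day 7 groups did not overlap, with a difference of -0.88 ± 0.47 (SE, limma adjusted p = 0.231), and those of day 14 did (-0.38 ± 0.47, limma adjusted p = 0.926). In NP, pool 2 had the highest HSD11B1 and the lowest HSD11B2 on both days, and pool 3 the lowest HSD11B1 and the highest HSD11B2. Pool 2 of CDd7 also had the highest HSD11B1 and the lowest HSD11B2, but pool 1 had the lowest HSD11B1 there. In CDd14 pool 2 was the lowest for both genes. How many of all genes are so opposed to HSD11B1 was not counted.

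HSD17B4 is a peroxisomal enzyme of fatty acid breakdown that can also oxidise oestradiol. Its bright probe set was at 12.54, 11.70 and 12.29 in CDd14 pools 1 to 3, against 13.63, 13.52 and 12.91 in CDd7 (log2). Every CDd14 pool was below every CDd7 pool, a difference of -1.17 ± 0.48 (SE, limma adjusted p = 0.0962) that did not pass. It passed with array weights (-1.17, adjusted p = 0.0383), with only the 6 CD arrays (adjusted p = 0.0408) and without NPd14 pool 2 (adjusted p = 0.0454).

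In NP the levels of HSD17B4 were 11.88, 13.01 and 11.09 in NPd14, against 12.02, 12.95 and 11.74 in NPd7. Between outcomes at day 7, CDd7 was higher by 1.12 ± 0.48 (log2, SE, 2.17-fold, limma adjusted p = 0.151), with NPd7 pool 2 overlapping CDd7 pool 3, and this passed with array weights (1.31, adjusted p = 0.0283). At day 14 the difference was 0.18 ± 0.48 (limma adjusted p = 0.974). Its second probe set was dim, with 4.16 to 5.09 on the 12 arrays, and differed by 0.38 ± 0.15 at day 7 (limma adjusted p = 0.128) and by -0.22 ± 0.15 between days in CD (limma adjusted p = 0.296).

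**Figure D4:**
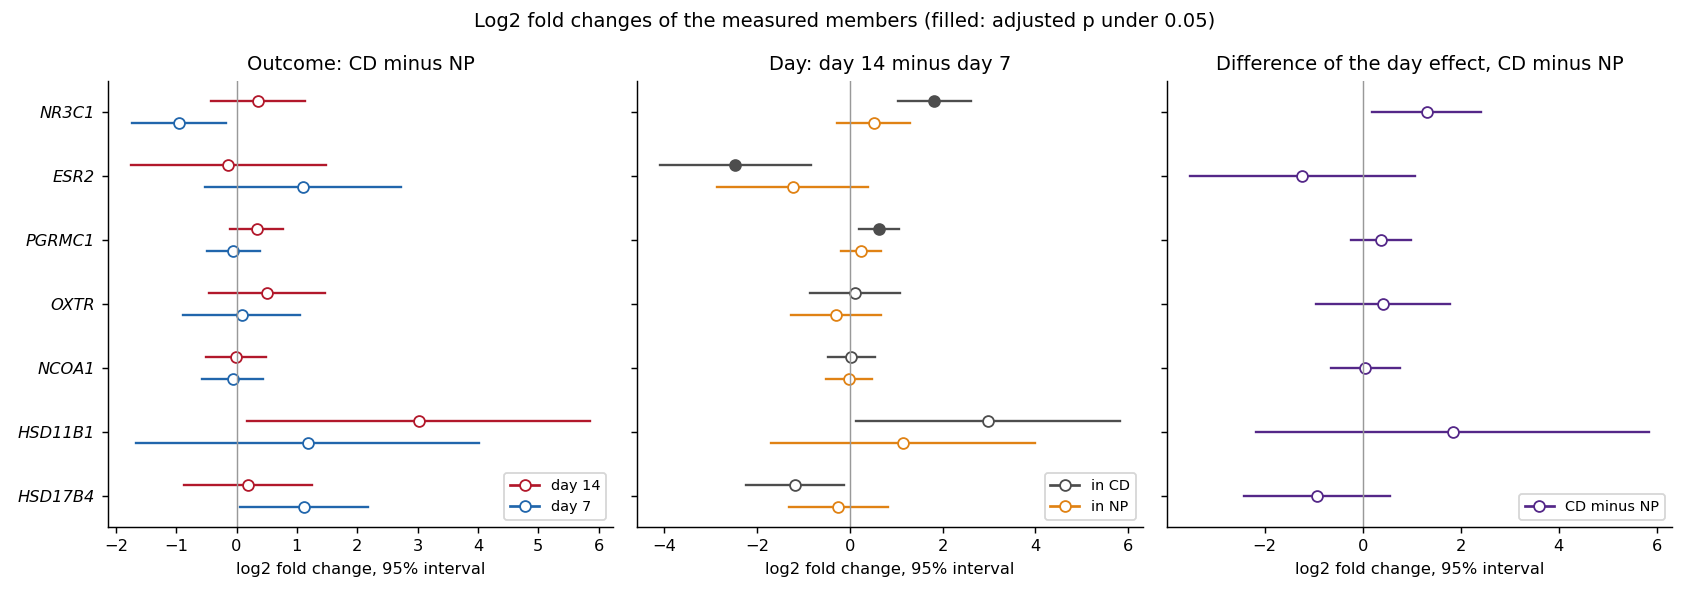
Log2 fold changes (points) with 95% intervals (lines) of the 7 measured genes, for CD minus NP on each day (left), day 14 minus day 7 in each outcome (middle) and the difference of the day effects (right). Filled points, with adjusted p under 0.05, occur only for NR3C1, ESR2 and PGRMC1 between days in CD, and the intervals of HSD11B1 are the widest.

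Pool 2 of NP was the highest of its group on both days for 4 of the 7 measured genes, and for 25.7% of all measured genes. It was so for OXTR at 10.72 in NPd14 and 11.08 in NPd7, for HSD11B1 at 8.63 and 6.07, and for HSD17B4 at 13.01 and 12.95. ESR2 was the other, with NPd14 under the filter. Leukocyte markers were lowest in pool 2 on both days, at -0.27 in NPd14 and -0.29 in NPd7, and CLDN5 was highest there, at -0.41 and 1.06 (mean deviation, log2). All NPd14 pools were under the filter for CLDN5. Stromal markers were also highest in pool 2 of NPd14, at 1.11, but lowest in pool 2 of NPd7, at 0.998. The part of these markers was not tested. Without NPd14 pool 2 the outcome difference of HSD11B1 at day 14 was 4.34 and that of OXTR 0.88 (log2), and neither passed. In CD no pool number was highest for all of OXTR, HSD11B1 and HSD17B4 on either day. These 3 genes are named here for their NP pattern, so this sets no contrast between CD and NP.

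**Figure D5:**
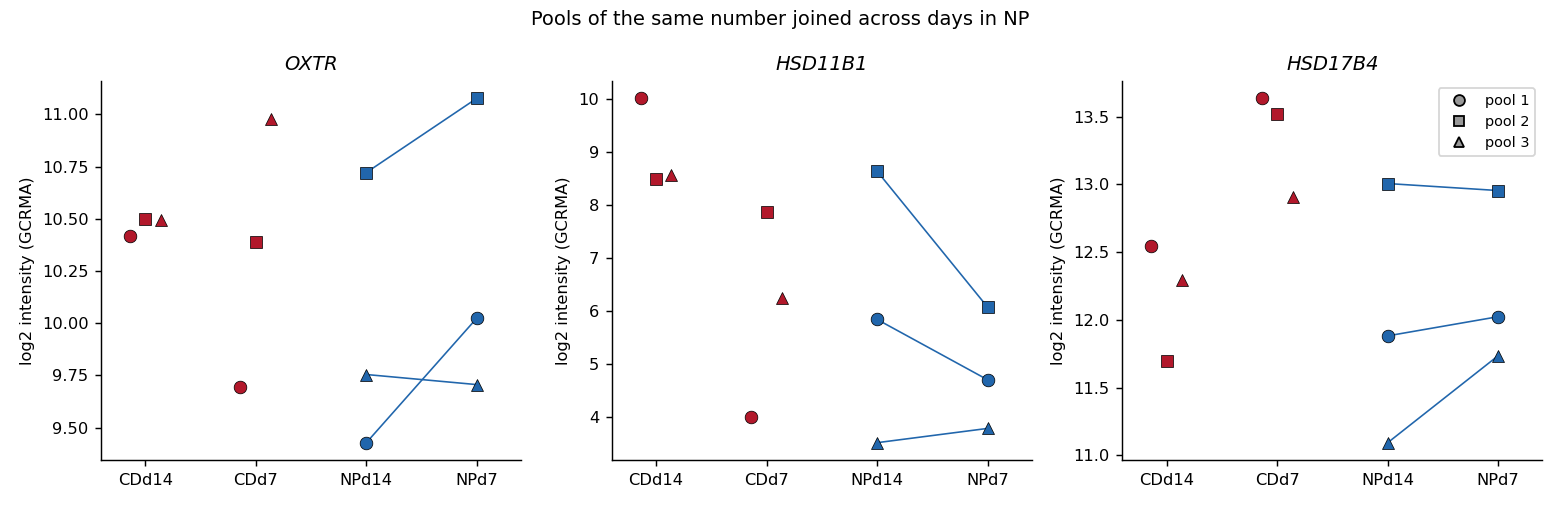
Log2 intensity (GCRMA) of OXTR, HSD11B1 and HSD17B4 by pool, CD in red and NP in blue, with same-numbered NP pools joined across days. Pool 2 (square) is the highest NP pool in all 3 panels on both days, the pattern for which these genes are shown.

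Genes that work with these receptors and enzymes were taken from 5 lists of 111 genes in all, of which 69 had a probe set with a single symbol and 46 were measured. The counts of each list are to be read against 24.1% of all genes called between days in CD and 3.48% for CD minus NP at day 7. By limma 2665 of all 6781 genes had an unadjusted p under 0.05 between days in CD, and 1116 between days in NP. For CD minus NP 430 had one at day 14 and 2062 at day 7, and 980 had one in the interaction. Of 11 measured steroid receptor partners (coactivators, corepressors and chaperones), 1 rose and 0 fell between days in CD (9.09%, against 24.1% of all genes), with a median log2 fold change of 0.17 against -0.00420 over all genes. It was NR2F2, an orphan receptor of the uterine stroma, at 10.77, 10.98 and 10.65 in CDd14, against 10.13, 9.56 and 10.19 in CDd7 (0.84 ± 0.26, SE, limma adjusted p = 0.0414). In the other comparisons 0 of the 11 passed in limma. The median for CD minus NP was 0.12 at day 14 and 0.02 at day 7, and it was 0.02 between days in NP. By limma 2 of the 11 had an unadjusted p under 0.05 between days in CD, and 3 for CD minus NP at day 7. In the rest 0 did.

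Of 10 measured steroid enzymes besides HSD11B1 and HSD17B4, 2 fell and 0 rose between days in CD (median 0.14), a share of 20% against 24.1% of all genes called and 14.2% of all genes lower. HSD17B10, a mitochondrial dehydrogenase of steroids and branched-chain acyl groups, was at 12.11, 11.83 and 11.91 in CDd14, against 13.005, 13.40 and 13.34 in CDd7 (-1.29 ± 0.30, limma adjusted p = 0.0148). HSD17B8, a mitochondrial dehydrogenase that also serves fatty acid synthesis, was at 10.19, 10.12 and 10.18 in CDd14, against 10.99, 10.86 and 10.58 in CDd7 (-0.64 ± 0.16, limma adjusted p = 0.0174). Both were thus lower at day 14 without overlap, as HSD17B4 was without passing, while 44.9% of all genes did not overlap there. HSD17B11 and HSD17B13 went the other way in CD, by 0.23 and 0.25, without passing. Of the 10 enzymes, 7 had a log2 difference above 0. Between outcomes and between days in NP 0 of the 10 passed in limma. At an unadjusted p under 0.05 there was 1 for CD minus NP at day 14, against 430 of all 6781 genes. There were 4 at day 7 (2062 of all genes) and 3 between days in NP (1116). Between days in CD there were 3 (2665), and in the interaction 3 (980). HSD17B8 also differed between days in NP without overlap, by -0.53 ± 0.16 (limma adjusted p = 0.164), and the difference of its change between CD and NP was -0.11 ± 0.22 (adjusted p = 0.825).

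Of 8 measured genes of oxytocin signalling, 2 rose and 0 fell between days in CD (median 0.07, 25% called against 24.1% of all genes), and 1 fell in CDd7 relative to NPd7 (median -0.16, 12.5% called against 3.48% of all genes). The gene that fell was ITPR1, a calcium release channel opened by the second messenger of the receptor, at 10.01, 9.79 and 9.86 in CDd7, against 10.66, 10.39 and 10.85 in NPd7 (-0.75 ± 0.15, limma adjusted p = 0.0347). The stromal markers given with NR3C1 and the muscle marker MYLK, at 4.59 to 6.34 in CDd7 against 8.57 to 8.83 in NPd7, were lower in CDd7 as well, and their part was not tested. ITPR1 also rose between days in CD, to 10.34, 10.56 and 10.36 in CDd14 (0.54 ± 0.15, limma adjusted p = 0.0265). ARRB1, an arrestin that uncouples receptors from their G proteins, was at 8.40, 5.39 and 6.55 in CDd14, against 4.79, 4.77 and 4.13 in CDd7, and rose by 2.21 ± 0.58 (limma adjusted p = 0.0229). The rise was 1.40 without CDd14 pool 1 and 2.91 without CDd14 pool 2.

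Of 11 measured glucocorticoid response genes, 2 rose and 1 fell between days in CD (median 0.51), a share of 27.3% that is near the 24.1% of all genes. In limma 0 passed in the other comparisons. An unadjusted p under 0.05 by limma was reached by 7 of the 11 between days in CD, against 2665 of all 6781 genes. For CD minus NP it was reached by 2 at day 14 (430 of all genes) and by 5 at day 7 (2062). It was reached by 2 between days in NP (1116) and by 1 in the interaction (980). CDKN1A, a cell cycle inhibitor, rose by 1.79 ± 0.56 and GLUL, glutamine synthetase, by 0.53 ± 0.16 (log2, SE), while NFKBIA, an inhibitor of NF-kappa-B, fell by 1.44 ± 0.37 (limma adjusted p = 0.0438, 0.0355 and 0.0216). NFKBIA thus moved against the other genes of this list that passed. Between days in NP, CDKN1A differed by 1.48 ± 0.56, GLUL by 0.04 ± 0.16 and NFKBIA by -0.64 ± 0.37 (limma adjusted p = 0.245, 0.922 and 0.423). The day effects of CD and NP differed by 0.31 for CDKN1A, 0.49 for GLUL and -0.81 for NFKBIA (limma adjusted p = 0.874, 0.352 and 0.479). Of 6 measured progesterone and oestrogen response genes, 1 fell and 0 rose between days in CD (median 0.18, 16.7% called against 24.1% of all genes). It was MSX1, a homeobox factor, at 13.85, 14.02 and 13.93 in CDd14, against 14.28, 14.42 and 14.33 in CDd7 (-0.41 ± 0.11, limma adjusted p = 0.0222).

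None of these list calls passed in all 12 fits that left out 1 pool, and leaving out CDd7 pool 2 ended all of them. HSD17B10 passed in 11 of 12 and was lost without that pool alone (adjusted p = 0.0596). HSD17B8 passed in 9 of 12 and was lost without CDd7 pool 1 (0.0552) or 2 (0.0642) or CDd14 pool 3 (0.0503). ARRB1 passed in 9 and was lost without CDd7 pool 2 (0.0630) or 3 (0.0558) or CDd14 pool 3 (0.0550).

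NFKBIA and MSX1 also passed in 9 of 12 and were lost without CDd7 pool 2 (0.0878 for NFKBIA, 0.0850 for MSX1), CDd14 pool 1 (0.0665 and 0.0669) and CDd14 pool 3 (0.0601 and 0.0653). ITPR1 passed between days in 8 of 12 and was lost without CDd7 pool 2 (0.0962) or 3 (0.0529) or CDd14 pool 2 (0.0833) or 3 (0.0616). For the outcome at day 7 ITPR1 passed in 7 and was lost without CDd7 pool 2 (0.141), NPd7 pool 1 (0.128) or 3 (0.148), or CDd14 pool 1 (0.0513) or 3 (0.0595).

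The weakest calls were those of NR2F2, GLUL and CDKN1A, which passed in 5, 4 and 3 of 12 fits. NR2F2 was lost without CDd7 pool 1 (0.0638) or 2 (0.154), any CDd14 pool (0.0830, 0.114 and 0.0763 for pools 1 to 3), NPd14 pool 1 (0.0594) or NPd7 pool 1 (0.0591). GLUL was lost without CDd7 pool 1 (0.104) or 2 (0.134), any CDd14 pool (0.0851, 0.0735 and 0.0880), NPd14 pool 1 (0.0527) or NPd7 pool 1 (0.0525) or 3 (0.0502). CDKN1A was lost without CDd7 pool 1 (0.126) or 2 (0.105), any CDd14 pool (0.124, 0.0882 and 0.0646), NPd14 pool 1 (0.0551) or any NPd7 pool (0.0563, 0.0540 and 0.0599). With no filter NR2F2 (0.0817), ARRB1 (0.0547), GLUL (0.0507) and CDKN1A (0.0974) were lost, the stricter filter left ARRB1 out, and with only the arrays compared the calls were lost for ARRB1 (0.0840), GLUL (0.107), MSX1 (0.0504) and ITPR1 at day 7 (0.0938). The NR3C1 call, in contrast, held without CDd7 pool 2.

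The genes whose pattern over the 12 arrays was most like that of a member are given as a description, since the arrays share 4 groups. For NR3C1 they were SLC22A5, a carnitine transporter (Pearson's r = 0.974), CHMP3, a subunit of the membrane-remodelling ESCRT machinery (0.973), and LMBR1 (0.971). For ESR2 they were LPAR2, a lysophosphatidic acid receptor (0.969), TM9SF3 (0.959) and ERO1A, an oxidase of the endoplasmic reticulum (0.954). For HSD11B1 they were PLS3, an actin-bundling protein (0.932), MYL3, a myosin light chain (0.922), and MYOF, a membrane repair protein (0.919). MYL3 was above the filter in 3 CDd14 pools, 2 NPd14 pools, 1 CDd7 pool and 0 NPd7 pools. For HSD17B4 they were ADK, adenosine kinase (0.976), GARRE1 (0.974) and RABEP1, an endosomal tether (0.972). SLC22A5 shows the likeness to NR3C1 in its levels: 13.32, 13.17 and 13.40 in CDd14, 13.01, 12.80 and 13.33 in NPd14, 12.30, 11.91 and 12.51 in CDd7 and 12.90, 12.43 and 13.05 in NPd7 (log2).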

How the data were processed

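Endometrial RNA of 12 pools was labelled with biotin for Affymetrix 3' arrays, per the labels' protocols. The authors deposited normalized log2 values. Of tools, the submitters' processing notes list GCRMA and limma, with versions not given in the sources used here, and no detection calls were used. The groups come from the sample titles, and 1 CDd14 title with conflicting numbers was read by its replicate number (3). After 112 control probe sets were left out, 13449 of 24016 probe sets were above 4 on at least 3 arrays. Symbols came from the platform annotation, with 13263 of 13292 single-symbol probe sets matched by gene identifier and 0 changed. Limma 3.58.1 in R 4.3.3 fitted 4 group means over the 12 arrays, with default eBayes and Benjamini-Hochberg adjustment over the kept probe sets (two-sided). A gene stands for its brightest kept probe set. The scripts were tested on simulated data.

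The members and lists were chosen with earlier results of these data known. The genes named are the members, up to 3 called genes per list and comparison with the smallest p, and the 3 most correlated genes of members with a range of at least 2. HSD11B2 lies outside this rule and was added after its values were seen. No sequence was used here. The number of arrays limits the precision.

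Pool numbers were checked by the correlation of same-numbered pools' deviations from their group means. It was 0.16, 0.62 and 0.51 between days in NP for pools 1 to 3, and 0.24, -0.07 and 0.23 in CD. Between CDd7 and NPd7, whose heifers differ in outcome, it was -0.03, 0.36 and 0.27. The main fit paired no pools. The NP pools were treated as paired only in the differences of same-numbered pools and in the fits with a replicate block. The block over all arrays, one of the alternatives, joined the CD pools by number as well. No label pairs the NP pools, and these correlations do not establish that they are paired.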

Additional observations from a re-analysis of the deposited data

How the results depend on the processing

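The alternatives were another filter, quantile normalization, other eBayes settings, array weights, the pool number as a replicate block, only the arrays compared, averaging the probe sets of each gene, and leaving out each pool. The count of member genes called between days in CD was 3, and 1 with no filter and 2 with the stricter filter. Which members were called also changed: with only the CD arrays HSD17B4 passed, while PGRMC1 and ESR2 did not. With array weights HSD17B4 passed too. For CD minus NP at day 7 it was 0, and 1 with the replicate block (NR3C1, the 1 member call that the block changed) and 2 with array weights. The block joins CD and NP pools by a number that no label links. For the interaction of day and outcome it was 0, and 1 with array weights. The cause of these shifts was not tested. Leaving out 1 pool gave 1 to 4 calls between days in CD and 0 in each of the other comparisons. A replicate block over the 6 NP arrays alone, added after seeing the data, called 0 members (NR3C1 and ESR2, 2 in all, at an unadjusted p under 0.05) and 0 probe sets (limma, 2835 at an unadjusted p under 0.05). With the mean of its probe sets NCOA1 turned sign to 0.10 for CD minus NP at day 7, -0.19 between days in CD, 0.015 between days in NP and -0.21 in the interaction, and with array weights to 0.14 for CD minus NP at day 14, without passing. Sign changes when 1 pool was left out concerned values that had not passed: OXTR ran from -0.23 to 0.49, PGRMC1 from -0.17 to 0.052 for CD minus NP at day 7, ESR2 from -0.26 to 0.11, NCOA1 from -0.22 to 0.25 and HSD17B4 from -0.27 to 0.69 for CD minus NP at day 14. Between days they were OXTR from -0.21 to 0.43 and NCOA1 from -0.053 to 0.20 in CD, and OXTR from -0.68 to 0.10, NCOA1 from -0.27 to 0.19, HSD11B1 from -0.17 to 2.38 and HSD17B4 from -0.75 to 0.21 in NP. NCOA1 ran from -0.15 to 0.31 in the interaction. The stricter filter left out ESR2.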
